A study of Mus musculus with 28 samples.

Results

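Among the 14 hearts of the control strain, 5 had a low signal of Myh7 and 9 had a high one. These are the hearts compared here, out of 28 mouse hearts in the series. The sides were chosen by a measured value: hearts with a signal below 10000 for the single Myh7 probe set were put on the low side and those at 10000 or above on the high side. A probe set is a group of short probes on the array that reads 1 transcript, and its signal is a brightness in linear units after the authors' scaling of each array. Because the signals of the same hearts chose the sides, the differences between them are descriptions with a standard error, and no test is attached to them.

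The low side held control replicate 7, which was untreated, and replicates 1, 4, 6 and 7 of the controls given WY14643, an activator of PPARalpha. The high side held untreated control replicates 1 to 6 and WY14643 control replicates 2, 3 and 5. The other 14 hearts came from the deletion strain labelled del337TR, 7 given WY14643 and 7 untreated, and took no part in the choice. The series title names resistance to thyroid hormone, the disorder in which a mutant thyroid hormone receptor blunts the response to the hormone. Every array held the RNA of whole heart tissue from 1 animal. The labels leave out how the deletion is carried, the genetic background, the age, and the dose and duration of WY14643, and nothing says whether the animals were littermates. The number of arrays limits the precision of each value.

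The heart has a pair of myosin heavy chains that drive contraction. Myh6 encodes the fast alpha chain, which dominates in the adult mouse ventricle, and Myh7 encodes the slow beta chain, which dominates before birth and returns under low thyroid hormone or pressure load. Thyroid hormone raises Myh6 and represses Myh7. The 2 genes lie next to each other on chromosome 14, and the exchange of one chain for the other is known as the myosin switch. PPARalpha, encoded by Ppara, is a nuclear receptor that raises genes of fatty acid oxidation.

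The promoters of the neighbouring myosin genes are shown because these are the genes that define the switch. Each window runs from 250 bases before to 50 bases after a transcript start in RefSeq, build GRCm38.p6, 5′ to 3′ on the minus strand, for Myh6 at chr14:54966558-54966857 and for Myh7 at chr14:54994577-54994876. Capitals mark matches, on either strand, to CATTCC, the core of the M-CAT element that TEAD factors bind, and to AGGTCA and AGGTGA, half-site letters of thyroid hormone receptor elements.
Myh6: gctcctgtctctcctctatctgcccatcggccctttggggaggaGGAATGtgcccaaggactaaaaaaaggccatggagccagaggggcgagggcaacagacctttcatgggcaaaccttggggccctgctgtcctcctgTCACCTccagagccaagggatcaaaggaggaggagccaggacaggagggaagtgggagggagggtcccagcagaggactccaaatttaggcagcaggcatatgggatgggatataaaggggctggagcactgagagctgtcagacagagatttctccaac
Myh7: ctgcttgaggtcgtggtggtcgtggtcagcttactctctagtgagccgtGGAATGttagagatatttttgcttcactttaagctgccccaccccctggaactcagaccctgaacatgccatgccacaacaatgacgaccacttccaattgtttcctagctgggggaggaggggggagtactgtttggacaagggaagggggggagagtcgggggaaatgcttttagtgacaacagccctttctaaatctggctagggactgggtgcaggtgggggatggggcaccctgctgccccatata
The Myh6 window held 1 match to CATTCC, read on the other strand as GGAATG, and 1 match to AGGTGA, read on the other strand as TCACCT. The Myh7 window held 1 match to CATTCC, also on the other strand, and a second Myh7 window that starts at 54994500 held none. No AGGTCA stood in these windows. Of 32851 promoter windows of the same length, 14.7% held CATTCC, 17.4% held AGGTGA and 16.3% held AGGTCA, and the motifs did not overlap in the printed windows. A match describes these letters and is not a bound site.

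The Myh7 signal fell into separate ranges in the controls. On the low side it was 3102.7 in untreated replicate 7 and 6007.0, 4239.9, 3920.7 and 4519.7 in WY14643 replicates 1, 4, 6 and 7. On the high side it ran from 14554.0 to 20991.8, with a median of 17437.1. The values nearest the threshold were 6007.0 below it and 14554.0 above it, so no heart lay close to 10000. The means were 4358.0 ± 1063.8 on the low side and 17113.9 ± 2136.4 on the high side (SD, n = 5 and 9), 3.99-fold apart on the log2 scale. In del337TR hearts the signal ran from 14571.8 to 24980.9, with a median of 17834.8, and none of them lay below 10000.

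The low side held 4 WY14643 and 1 untreated heart, and the high side 3 WY14643 and 6 untreated hearts. Fisher's exact test of this split, two-sided, gave an odds ratio of 8.0 (p = 0.266). Treatment was a covariate in every difference given here, except where hearts of 1 treatment were read alone. By the signals of Xist and Eif2s3y, 2 of the low hearts were female and 3 male, against 3 female and 6 male on the high side.

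Several measures of the arrays moved with the sides or with 1 heart. The ratio of 3′ to 5′ actin control signals, a sign of RNA quality, was 1.32 to 1.82 on the low side, against 1.18 to 1.36 on the high side and 1.09 to 1.37 in del337TR hearts. The same ratio of Gapdh averaged 0.82 ± 0.01 on the low side and 0.81 ± 0.01 on the high side. The summed signal of 14 atrial markers ran from 10501.2 to 44822.8 on the low side and from 17566.7 to 43344.7 on the high side, and these ranges overlapped. Untreated replicate 7, the only untreated low heart, had the highest atrial signals on its side. The part of the actin ratio in the differences below was not tested.

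Myh6 stood on the opposite side from Myh7. Its probe set 1417729_at gave 6949.1 in untreated replicate 7 and 8017.4, 7046.9, 7962.1 and 7925.9 in the WY14643 hearts of the low side, against 2112.5 to 3971.9 on the high side (median 3248.7). All low hearts lay above all high hearts, and the log2 difference was 1.37 ± 0.15 (SE), or 2.58-fold. Del337TR hearts had 2412.0 to 3741.8, within the range of the high side. The brighter Myh6 probe set 1448826_at differed less. It gave 17065.0, 15741.0, 16938.6, 18495.7 and 19894.5 in the same order of low hearts, against 11949.2 to 16553.1 on the high side. Here the sides overlapped, with a log2 difference of 0.27 ± 0.11. The 2 probe sets therefore disagreed on the size of the difference in Myh6.

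**Figure D1:**
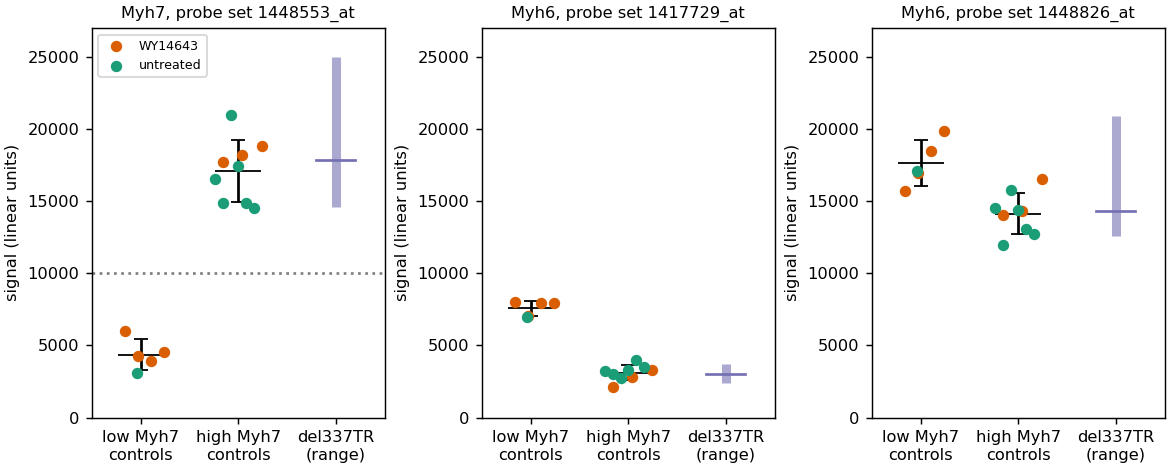
Signals of the Myh7 probe set and both Myh6 probe sets (y axes, linear units) in low-Myh7 controls, high-Myh7 controls and del337TR hearts. Points are hearts coloured by treatment, bars are the mean and SD, the violet bar is the range of the 14 del337TR hearts with its median, and the dotted line is the threshold of 10000. Myh6 1417729_at was 6949.1 to 8017.4 on the low side, against 2112.5 to 3971.9 on the high side, whereas 1448826_at overlapped.

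Over the whole array, 171 probe sets were higher and 286 lower in all low hearts than in all high hearts with at least a 1.5-fold difference. These were 0.38% and 0.635% of the 45036 probe sets other than Myh7, and 1.01% in either direction. The median log2 difference over all probe sets was 0.035. The 414 of them with 1 gene symbol named 334 genes, 118 higher and 216 lower. For 57 genes more than 1 probe set met both conditions, and none of these had both directions. At least 2-fold were 60 higher and 123 lower, and at least 4-fold 7 higher and 26 lower. They were spread over all 20 chromosomes with at least 100 probe sets, at 0.728% to 1.82% of each. Without untreated replicate 7 the counts were 227 higher and 371 lower. In whole-heart RNA, fewer cells of a type and less RNA per cell cannot be told apart.

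The lists of genes used below held 471 measured genes in 31 lists, each gene read by its brightest probe set. Of these, 11 met both conditions, 5 higher and 6 lower. Together they were 2.34%, against 1.36% of all 18192 genes by their brightest probe set (0.473% higher and 0.885% lower). The lists were chosen with earlier results of these data known, and all genes were taken without a filter on signal. The shares are therefore a description and no test of the lists. The 11 genes stood in 7 of the lists. Names were also matched through synonyms, which read Pigq for Gpi1, Loxl3 for Loxl2 and Hcn3 for Hcn4. These replacements are other genes and count as measured members of their lists, but none of them was called.

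Thyroid hormone induced genes held 4 of the higher genes. Of 13 measured genes on this list 12 had a difference above 0 and 4 were called higher and 0 lower, with a median of 0.32, against 0.019 over all genes. Kcnd2, the Kv4.2 subunit of the transient outward potassium current, had 1123.3, 949.9, 795.0, 851.4 and 1091.3 in the low hearts by 1422835_at. Its high hearts had 327.9 to 571.1. The sides did not overlap, and 3 Kcnd2 probe sets differed by log2 1.23 ± 0.16, 1.30 ± 0.17 and 1.13 ± 0.20 (SE). Thrsp, the Spot 14 regulator of lipogenesis named for its response to thyroid hormone, had 1383.6, 1536.7, 1970.1, 1261.4 and 1769.2 in the low hearts, against 664.7 to 902.9 on the high side. All low values lay above the high ones, by log2 0.99 ± 0.14, and a second probe set gave 1.02 ± 0.16.

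Hr, the hairless corepressor of nuclear receptors, had 165.3, 179.7, 186.8, 172.8 and 194.3 in low hearts by 1435950_at, against 34.7 to 121.3 in high hearts. Its log2 difference was 0.91 ± 0.28, and the dimmer probe set 1422110_at gave -0.28 ± 0.37. Hcn2, a channel of the pacemaker current, had 245.5, 259.3, 182.0, 220.4 and 161.0 in low hearts and 103.3 to 153.3 in high hearts (log2 0.83 ± 0.16). Kcnd2 and Hcn2 were also the 2 of 22 measured potassium, pacemaker and other channel genes that met the conditions, with a list median of 0.22.

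The hormone's receptors did not separate the sides. Thra, the main thyroid hormone receptor of heart muscle, differed by log2 -0.23 ± 0.10, -0.01 ± 0.20 and -0.26 ± 0.21 over 3 probe sets. Thrb differed by -0.07 ± 0.13, and Ppara by -0.23 ± 0.22, -0.04 ± 0.20 and -0.14 ± 0.25. In each of these probe sets the sides overlapped. Thyroid hormone repressed genes had a median of 0.01, with 5 of 9 above 0 and none called, and the median fell below 0 when arrays were centred or quantile normalised. Slc8a1, the sodium-calcium exchanger on that list, had 440.1, 510.4, 423.8, 487.7 and 516.6 in low hearts and 540.8 to 814.1 in high hearts. These ranges did not overlap, but the log2 difference of -0.43 ± 0.12 was under 1.5-fold.

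**Figure D2:**
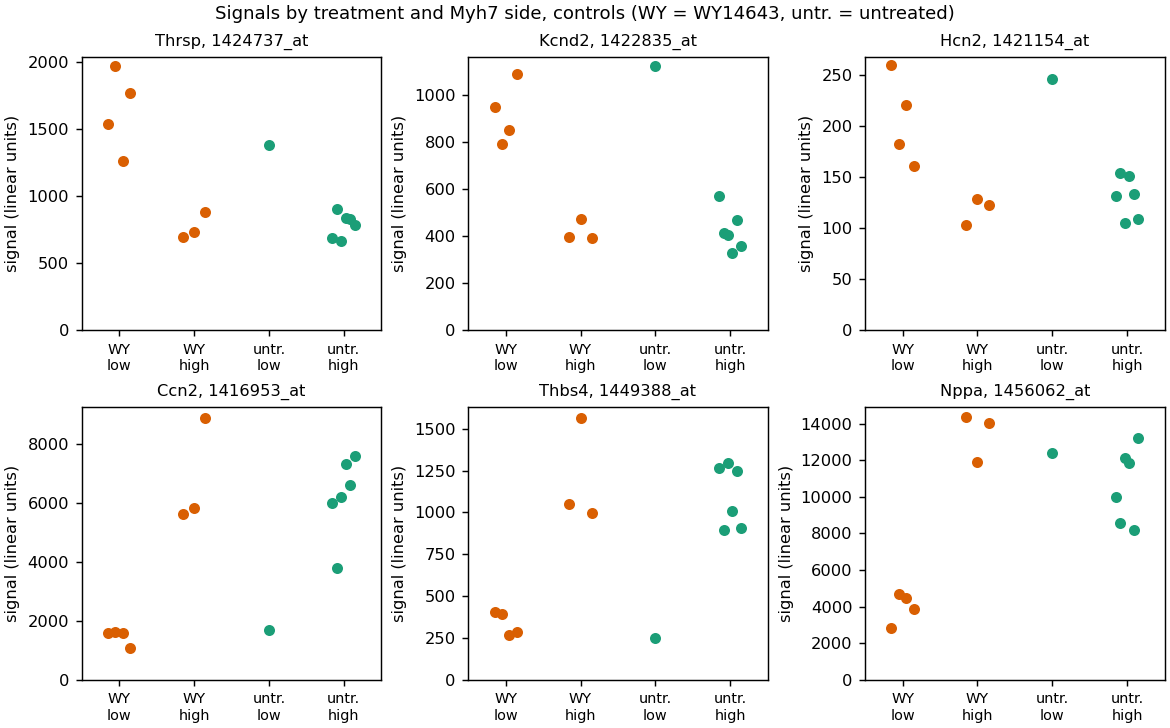
Signals (y axes, linear units from 0) of 6 genes in single control hearts by treatment and Myh7 side, with WY14643 hearts in orange and untreated hearts in green. The single untreated low heart had 1383.6 for Thrsp, inside the 1261.4 to 1970.1 of all low hearts, but 12384.5 for Nppa, among the high hearts at 8190.7 to 14345.3.

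The genes that were higher by most on the low side included muscle and membrane proteins. Fndc5, the membrane precursor of irisin, had 1930.3, 2091.3, 2030.3, 2284.9 and 1513.8 in low hearts by 1435115_at and 493.0 to 735.2 in high hearts. Its log2 difference was 1.88 ± 0.13, and 1.66 ± 0.14 by a second probe set. Both probe sets separated the sides, and del337TR hearts had 451.3 to 846.1 by the first. Lrtm1, a transmembrane protein with leucine-rich repeats, was higher by 1.77 ± 0.20 and 1.54 ± 0.16 over its 2 probe sets. Its brighter set had 1838.5, 2391.0, 2038.8, 2088.1 and 1708.1 in low hearts, against 448.3 to 927.6 in high hearts.

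Kinases followed. Prkcq, the theta form of protein kinase C, had 221.6, 347.6, 254.1, 314.5 and 298.8 in low hearts and 34.5 to 130.2 in high hearts (log2 1.84 ± 0.31). Mylk4, a member of the myosin light chain kinase family, had 2094.6, 2224.1, 3055.5, 3226.3 and 2043.7 in low hearts, against 656.3 to 1238.9 in high hearts (1.5 ± 0.21). Neither gene overlapped between the sides.

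Among enzymes, Abhd1, an alpha/beta hydrolase, had 818.4, 852.4, 672.6, 568.6 and 721.4 in low hearts and 205.2 to 363.4 in high hearts (log2 1.40 ± 0.16). The sides were well apart here. Egln3, a prolyl hydroxylase that marks hypoxia-inducible factors for breakdown, had 2423.9, 1652.9, 2291.9, 2651.7 and 1419.8 in low hearts, against 699.7 to 901.6 in high hearts (1.34 ± 0.16). Dhrs7c, a dehydrogenase of the sarcoplasmic reticulum, had 2238.3, 2033.4, 1920.7, 1842.3 and 3181.2 in low hearts and 686.5 to 1182.8 in high hearts (1.10 ± 0.18). Egln3 and Dhrs7c were chosen after their values were seen.

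Among probe sets without overlap and with a mean of at least 100 on either side, the largest positive difference was that of Spata33, at 184.6, 130.6, 132.7, 118.1 and 187.8 in low hearts and 9.5 to 77.2 in high hearts (log2 2.48 ± 0.46). In high hearts Spata33 had a median of 19.6, under the median probe set of their arrays at 60.0 to 75.8. The size of its difference therefore rests on dim signals. Armh4 had 222.8 to 262.5 in low hearts and 80.3 to 120.1 in high hearts (1.37 ± 0.12). Ptgfr, the receptor for prostaglandin F2alpha, was higher by 1.43 ± 0.35, but its value in untreated replicate 7, 204.7, stood apart from the 71.2 to 88.9 of the other low hearts. Its high hearts had 19.6 to 70.2, so the sides nearly touched. These 3 were dim relative to the myosins.

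Probe sets of the same gene differed in size among the genes that were higher by most, as in Myh6 above. Ubtd1 was 1.62 ± 0.40 by 1441826_x_at and -0.08 ± 0.21 by the brighter 1424432_at. Letm1, a protein of the inner mitochondrial membrane, was 1.47 ± 0.12 by 1420826_at, and 0.69 ± 0.27, 0.14 ± 0.38 and 0.03 ± 0.15 by 3 dimmer sets. Dbh, which makes noradrenaline, was 1.38 ± 0.37 by 1459848_x_at and 0.19 ± 0.16 by the brighter 1450670_at. Over all called genes, 216 other probe sets with a mean of at least 100 were read, and 34 of them had the opposite sign. Probe sets whose names end in _x_at or _s_at can read more than 1 transcript.

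Rxfp1, Ttr and Ramp1 were among the genes that were lower by most. Rxfp1, the receptor for relaxin, had 8.3, 3.4, 3.2, 6.8 and 5.6 in low hearts and 124.3 to 186.2 in high hearts. The groups were far apart, by log2 -4.69 ± 0.22, or 25.8-fold lower. Low hearts lay far under the median probe set of their arrays, at 65.4 to 71.9, so the size rests on dim signals. With 16 added to each signal the difference was -2.86. Ttr, transthyretin, which carries thyroid hormone and retinol-binding protein in blood, was lower by all 4 of its probe sets. Its brightest, 1454608_x_at, had 49.4, 4.6, 43.7, 38.1 and 62.6 in low hearts and 236.5 to 512.2 in high hearts (-3.40 ± 0.58). The other 3 differed by -4.53 ± 0.34, -4.15 ± 0.52 and -2.41 ± 0.27. Low hearts averaged 8.5 to 39.7 over the 4 Ttr sets, under the median probe set, so these sizes also rest on dim signals. Ramp1, which pairs with the receptor for calcitonin gene-related peptide, had 153.0, 109.2, 81.1, 58.8 and 41.8 in low hearts, against 220.9 to 444.9 in high hearts (-2.0 ± 0.31).

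Fxyd6, a regulator of the sodium pump, had 205.5, 277.7, 207.1, 201.5 and 197.9 in low hearts and 697.9 to 1125.3 in high hearts. The sides stood well apart (log2 -2.17 ± 0.15), and del337TR hearts had 693.5 to 1264.0. Slc38a1, a glutamine transporter, had 162.8, 44.4, 22.3, 92.1 and 13.2 in low hearts and 189.7 to 452.1 in high hearts by 1454764_s_at (-2.41 ± 0.53). Its brighter set 1415903_at overlapped and gave -1.03 ± 0.24. Without untreated replicate 7 the values were -3.21 and -1.38, and neither overlapped.

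Other genes that were far lower were of mixed kind. Bex1 had 240.7, 368.0, 352.1, 549.2 and 555.6 in low hearts and 979.9 to 2068.8 in high hearts (log2 -2.11 ± 0.23). Krt18, a keratin of simple epithelia, had 84.8, 60.2, 69.0, 97.4 and 75.3 in low hearts, against 230.3 to 555.3 in high hearts (-2.02 ± 0.23). Low and high hearts did not overlap in either. Krt8, its usual partner, chosen after its values were seen, was -2.07 ± 0.49 by a dim set and -0.27 ± 0.19 by the brighter 1420647_a_at, in which the sides overlapped. Fgf6, a fibroblast growth factor of skeletal muscle, had 11.5 to 46.0 in low hearts and 94.3 to 240.4 in high hearts (-2.30 ± 0.33).

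Another 3 genes were dim on the low side. Afmid, kynurenine formamidase of tryptophan breakdown, had 21.1 to 93.5 in low hearts and 226.1 to 451.2 in high hearts by 1452944_at (log2 -2.91 ± 0.34), and -1.10 ± 0.16 by 1428885_at. Nmral1 had 6.6 to 33.8 in low hearts and 82.3 to 205.6 in high hearts by 1430530_s_at (-3.31 ± 0.43), or -2.25 with 16 added. Its other sets were not called, at -1.59 ± 0.49 by 1453562_a_at and 0.36 ± 0.23 by 1453563_at. Rps4l, a copy of a ribosomal protein S4 gene, had 80.0, 13.1, 13.5, 16.4 and 12.7 in low hearts, against 124.2 to 400.6 in high hearts (-3.13 ± 0.44). Without untreated replicate 7, the heart at 80.0, this was -3.95. Signal from related ribosomal transcripts cannot be told apart from its own.

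**Figure D3:**
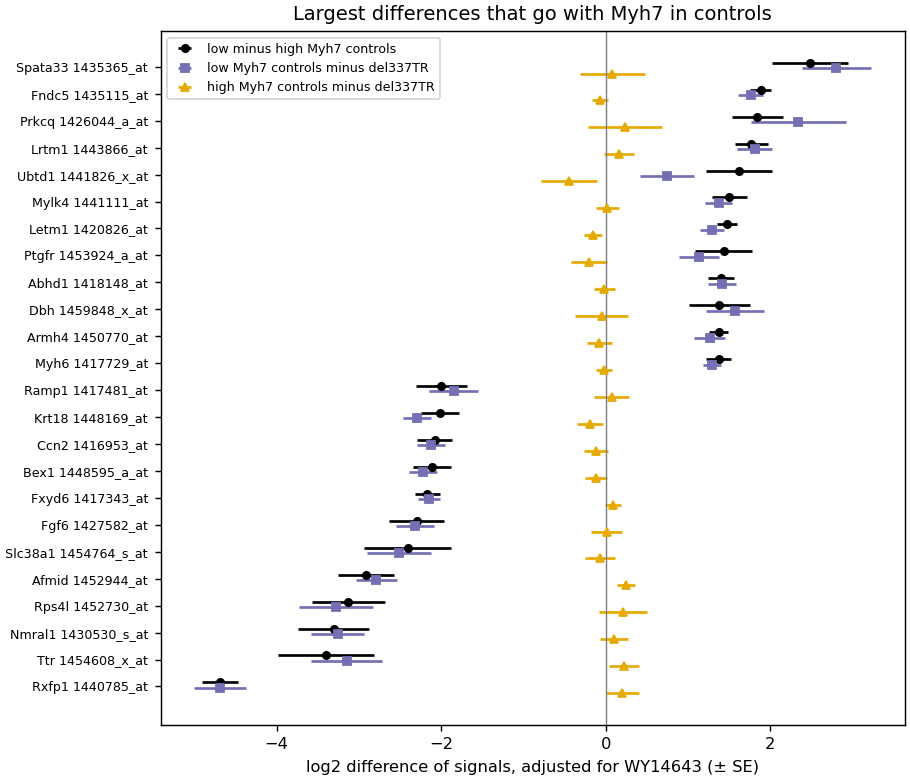
Log2 differences ± SE (x axis) of the 12 genes that were higher by most and the 12 that were lower by most on the low side, for low minus high controls (black), low controls minus del337TR (violet) and high controls minus del337TR (yellow). The black points run from 2.48 for Spata33 to -4.69 for Rxfp1, and the yellow points lie within 0.45 of 0 on the log2 scale. The 3 comparisons share hearts.

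Of 34 measured matrix and profibrotic genes 7 had a difference above 0, 3 were called lower and 0 higher, and the median was -0.29. Ccn2, the connective tissue growth factor, had 1684.3, 1604.0, 1612.9, 1580.5 and 1094.8 in low hearts and 3791.2 to 8893.7 in high hearts (median 6219.3). Every low heart lay under every high heart, by log2 -2.08 ± 0.21, or 4.23-fold, and del337TR hearts had 4591.1 to 10847.4. Thbs4, thrombospondin 4, a matrix protein of stressed heart, had 248.7, 407.4, 395.0, 266.6 and 285.0 in low hearts, against 894.0 to 1566.0 in high hearts (-1.93 ± 0.18). Tgfb2, a ligand of the TGF-beta receptors, had 165.0, 156.3, 140.4, 143.9 and 108.6 in low hearts and 284.7 to 469.2 in high hearts by 1450922_a_at (-1.37 ± 0.15). Another 2 Tgfb2 probe sets met the conditions, and another, 1450923_at, gave -0.73 ± 0.21.

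Ccn2 is also a target of the Hippo pathway, in which YAP and TEAD factors switch on growth genes. Of 22 genes on the list of Hippo and SRF targets 2 were called lower, Ccn2 and Vgll2. None was called higher, and the median was -0.15. The list also holds factors of these pathways, such as Tead1, Lats2, Srf and Vgll2. Vgll2, a cofactor of TEAD factors in muscle, had 186.1, 306.0, 279.7, 299.9 and 280.3 in low hearts and 397.4 to 640.5 in high hearts (log2 -0.93 ± 0.18). Without untreated replicate 7 this was -0.58, under 1.5-fold.

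Genes that return with Myh7 under load were read next. None of 26 slow and fetal muscle genes was called, 8 lay above 0, and the median was -0.20. Acta1, skeletal alpha-actin, which heart muscle re-expresses under load, had 6681.4, 8546.5, 6421.4, 4737.0 and 4612.8 in low hearts and 8332.2 to 11837.9 in high hearts (log2 -0.78 ± 0.17). The sides overlapped by 1 low heart, WY14643 replicate 1, and without it they did not overlap (-0.88). Nppa, the atrial natriuretic peptide gene, had 12384.5 in untreated replicate 7 and 2837.7, 4703.4, 4451.9 and 3877.0 in the WY14643 hearts of the low side, against 8190.7 to 14345.3 in high hearts (-1.11 ± 0.32). Only untreated replicate 7, the heart with the highest atrial markers on the low side, overlapped, and without it the difference was -1.78. Acta1 and Nppb were chosen after their values were seen. Nppb, the ventricular relative of Nppa, overlapped widely at 3109.0 to 9852.3 in low hearts and 3665.2 to 11301.4 in high hearts (-0.62 ± 0.32). Tnni1, the slow skeletal troponin I, was dim in both, at 10.3 to 20.5 in low hearts and 17.0 to 225.1 in high hearts (-2.16 ± 0.71), and did not overlap without untreated replicate 7 (-2.54).

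None of 18 adult sarcomere genes and none of 21 calcium handling genes was called by its brightest probe set, with medians of 0.03 and 0.01. Each of these medians was below 0 when arrays were centred on their medians or quantile normalised. Atp2a2, the calcium pump SERCA2, differed by 0.10 ± 0.11, and Pln, its inhibitor phospholamban, by 0.01 ± 0.11. Both overlapped. Dimmer Atp2a2 sets gave more, 0.30 ± 0.09 by 1427250_at and 0.51 ± 0.11 by 1427251_at, still under 1.5-fold. Camk2a, a calcium-dependent kinase, had 108.4 to 237.8 in low hearts and 228.0 to 508.6 in high hearts (log2 -1.14 ± 0.28), with a small overlap. Atp2a2, Pln and the following probe sets were chosen after their values were seen. Myom2, a protein of the M-band, had 4341.4, 4977.1, 3572.2, 4008.6 and 4300.8 in low hearts and 7500.4 to 10901.5 in high hearts by 1450917_at (-1.10 ± 0.13). By its brightest set 1457435_x_at it differed by -0.43 ± 0.12. Trdn, triadin, which anchors calsequestrin to the calcium release channel, was -2.89 ± 0.43 by 1426143_at, while 5 other probe sets gave -0.25 to 0.33.

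Genes of energy metabolism were read beside the 1.36% of all genes that were called by their brightest probe set. Of 22 genes read for glucose use, with Pigq in place of Gpi1, 1 was called higher, Hk2, and 1 lower, Pdk1. The list median was 0.08. Hk2, hexokinase 2, had 3566.9, 3423.3, 3887.1, 4171.5 and 4059.4 in low hearts and 1979.3 to 2772.0 in high hearts (log2 0.71 ± 0.12). Pdk1, a kinase that inhibits pyruvate dehydrogenase, had 2210.8, 2449.0, 2370.9, 2257.1 and 1496.6 in low hearts, against 2907.1 to 3619.3 in high hearts (-0.61 ± 0.13). Neither overlapped, but without WY14643 replicate 7 the difference in Pdk1 was -0.50, under 1.5-fold. Dlat, a core subunit of that enzyme, was above all high hearts in all low hearts by 1426265_x_at but by only 0.47 ± 0.09, and passed 1.5-fold by 1452005_at (0.64 ± 0.10, or 0.58 without WY14643 replicate 7), a set chosen after its values were seen.

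Ppargc1a, the coactivator PGC-1alpha of mitochondrial genes, was the 1 of 17 receptor and coregulator genes that was called. It had 1083.3, 1231.4, 674.1, 816.2 and 1242.2 in low hearts and 1461.5 to 2478.9 in high hearts (log2 -0.83 ± 0.21). All 5 of its probe sets were below 0, from -0.91 to -0.59, and 2 of them were called. The second of these, 1460336_at, gave -0.53 without WY14643 replicate 4 and -0.51 without WY14643 replicate 5, under 1.5-fold. Its partner Esrra, an orphan receptor of the same genes, was above all high hearts in all low hearts at 1502.7 to 1614.2, against 1025.8 to 1398.9 (0.38 ± 0.11), short of 1.5-fold.

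Mitochondrial genes showed small differences. Of 38 respiratory chain and ATP synthase genes 37 had a difference above 0, but the median was only 0.10 and none was called. With arrays centred on their medians 23 of 38 lay above 0 and the median was 0.02. Cox7a1, a muscle subunit of cytochrome c oxidase, had 9811.9 to 12485.0 in low hearts and 7300.6 to 9363.3 in high hearts (log2 0.31 ± 0.11). None of 19 beta-oxidation, 18 citric acid cycle or 20 PPAR target genes was called, with medians of 0.03, 0.07 and 0.07, which were below 0 after centring. Cpt2, the carnitine palmitoyltransferase of the inner membrane, had 3520.4 to 4500.9 in low hearts, against 2467.3 to 3399.8 in high hearts (0.46 ± 0.12). Ucp3, a PPAR target of the mitochondrial membrane, was 967.4 to 1603.5 in low hearts and 318.6 to 1001.5 in high hearts (0.93 ± 0.29) and overlapped. Angptl4, another PPAR target, was -0.92 ± 0.58 and overlapped widely. Thrsp was the 1 called of 15 lipogenesis genes, of which 13 lay above 0 (median 0.19).

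**Figure D4:**
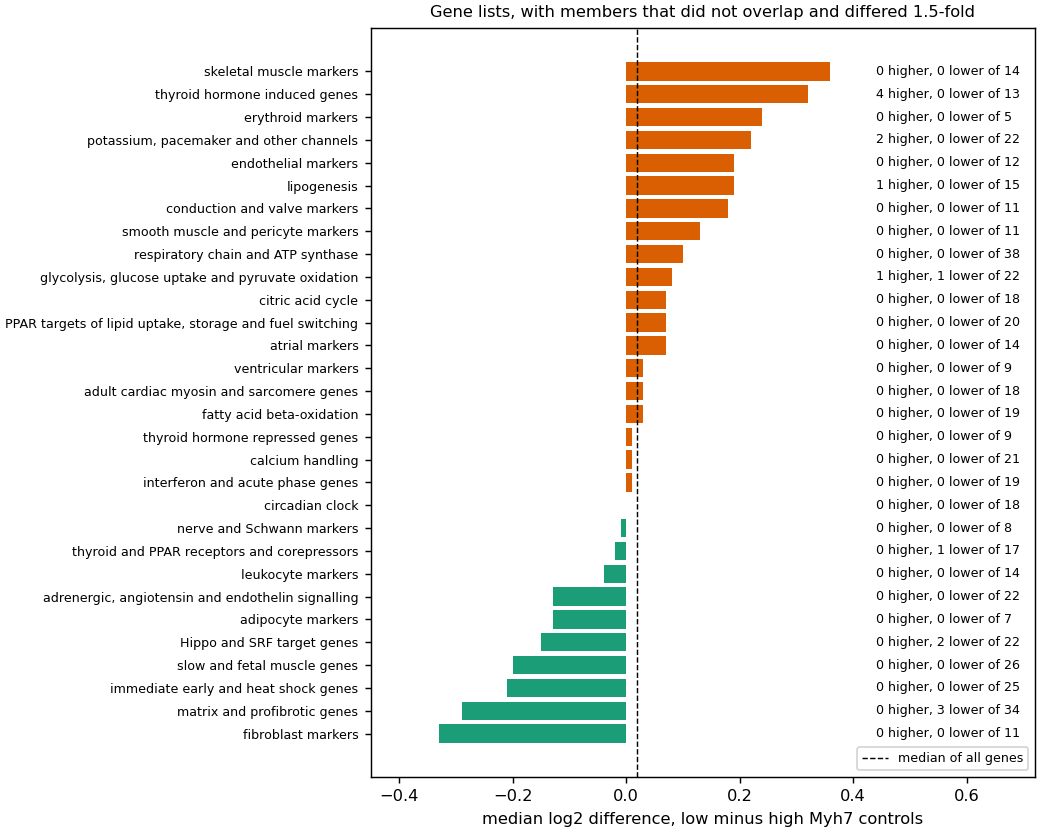
Median log2 difference, low minus high controls (x axis), of 30 gene lists, each gene by its brightest probe set, with the number of members that did not overlap and differed at least 1.5-fold at the right. Orange bars are above 0, green bars at or below it, and the dashed line is the median of all genes, 0.019. Thyroid hormone induced genes had 4 of 13 called higher, and matrix and profibrotic genes 3 of 34 called lower.

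Markers of other cells were read beside these groups. Of 11 fibroblast markers 1 had a difference above 0, the median was -0.33, and none was called. Their summed signal was 28542.0 to 31351.1 in low hearts and 30381.0 to 37862.1 in high hearts, so the ranges overlapped at their edge. Pdgfra, a receptor that marks fibroblasts, had 409.3 to 680.8 in low hearts and 558.1 to 1034.0 in high hearts (log2 -0.71 ± 0.20). Tcf21, a fibroblast transcription factor, had 374.0 to 402.1, against 415.8 to 670.8 (-0.41 ± 0.13). Dimmer probe sets of the same genes, Pdgfra 1421916_at and Tcf21 1458887_at, gave -0.02 ± 0.20 and 0.23 ± 0.22. These markers moved the same way as the matrix genes above, but Col1a1, Col1a2 and Col3a1 stand on both lists, so the lists are not separate readings. The part of fibroblasts in the matrix difference was not tested.

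No marker of endothelium, smooth muscle, leukocytes, adipocytes, erythroid cells, skeletal muscle or nerve was called. Their medians were 0.19, 0.13, -0.04, -0.13, 0.24, 0.36 and -0.01. Without untreated replicate 7 the adipocyte median was 0.22, with 4 of 7 above 0 in place of 2. Skeletal muscle markers had the largest median of the plotted lists, 0.36 with 12 of 14 above 0, or 0.20 with 16 added to each signal. Summed skeletal muscle markers were 13859.1 to 15327.6 in low hearts and 11194.9 to 14878.1 in high hearts, an overlap. Ventricular markers had a median of 0.03, which fell below 0 when arrays were centred or quantile normalised. Their sums were 69506.3 to 87859.4 in low hearts and 60935.6 to 84275.1 in high hearts. That list mixes bright genes such as Myh6 with dimmer ones such as Irx4, which averaged 236.9 in low and 236.8 in high hearts. Irx3 and Irx5 were lower in low hearts, by log2 -0.46 ± 0.19 and -0.47 ± 0.18, and both overlapped. On the whole list 6 of 9 markers lay above 0. The atrial genes Myl4, Myl7 and Sln differed by 0.71 ± 1.39, 1.70 ± 1.86 and 1.52 ± 2.37, and without untreated replicate 7 by -0.66, -0.04 and -0.37. Stress lists held no called member either. Heat shock and immediate early genes had 5 of 25 above 0 (median -0.21). The others were adrenergic, angiotensin and endothelin genes with 8 of 22 (median -0.13), clock genes 9 of 18 (median 0.00), and interferon and acute phase genes 10 of 19 (median 0.01).

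Within WY14643 controls alone, 4 low hearts were set against 3 high ones, and 4.86% of all probe sets were called. Myh6 1417729_at differed there by log2 1.51 ± 0.20, Fndc5 by 1.97 ± 0.18, Ccn2 by -2.19 ± 0.24 and Rxfp1 by -4.95 ± 0.31. Among untreated controls the single low heart allows no error. It differed from the mean of the 6 high ones by 1.09 for Myh6, 1.68 for Fndc5, -1.86 for Ccn2 and -4.16 for Rxfp1. The choice of these genes, in which the sides do not overlap, fixes the sign within each treatment. For Nppa the WY14643 hearts differed by -1.78 ± 0.22, whereas the untreated low heart differed by 0.24.

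Del337TR hearts, none of which had low Myh7, give a second set to stand beside each side. High controls did not separate from del337TR hearts with a 1.5-fold difference in any of the 45036 probe sets (0.0%). Low controls did so in 133 probe sets that were higher and 201 that were lower (0.295% and 0.446%, together 0.742%). These comparisons have groups of different size and share hearts with the comparison of the sides, so the counts are not set against each other.

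Only in del337TR hearts could a test be made that the choice of sides did not use. There the slope of each probe set per halving of the Myh7 signal was fitted with limma, so that a positive slope has the same sense as a higher value on the low side. Over all probe sets none passed an adjusted p of 0.05 (limma, Benjamini-Hochberg, n = 14), and the lowest adjusted p was 0.243. With the dimmest 40% of probe sets left out 56 passed, all with a negative slope, and with the trend and robust settings of limma 316 did, 5 positive and 311 negative. At an unadjusted p under 0.05, 1347 had a positive slope and 1474 a negative one (2.99% and 3.27%). The range of Myh7 was narrow in these hearts, 1.71-fold between the lowest and the highest, against 3.99-fold between the means of the control sides.

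The probe sets called in the controls were then read in this fit. Of 457, 245 had the same sign in del337TR hearts, 53.6%, against 48.7% of all probe sets that had the same sign in both. None passed the adjusted threshold. At an unadjusted p under 0.05, 7 had the same sign and 9 the opposite, together 3.5%, against 6.26% of all probe sets. Myh6 1417729_at had a slope of 0.31 ± 0.29 (adjusted p = 0.935), Ccn2 0.28 ± 0.45 (adjusted p = 0.97), Fndc5 0.27 ± 0.37 (adjusted p = 0.963) and Kcnd2 0.03 ± 0.42 (adjusted p = 0.996).

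Among the genes described here, the slopes with the smallest p in del337TR hearts were those of muscle genes. Atp2a2 had a slope of -0.96 ± 0.18, Pln of -0.79 ± 0.17, Myom2 1457435_x_at of -0.80 ± 0.18 and Myh6 1448826_at of -0.76 ± 0.18, and the lowest adjusted p among them was 0.243. A negative slope means a higher value with more Myh7, which for Myh6 is the opposite sign to that of the control sides. After quantile normalisation the slopes were -0.18 for Atp2a2, 0.04 for Pln, 0.01 for Myom2 and 0.10 for Myh6, so 3 of them changed sign with the scaling. Of 38 respiratory chain genes 33 had a negative slope at an unadjusted p under 0.05, and of 18 sarcomere genes 15, but after quantile normalisation 0 and 0. Without WY14643 del337TR replicate 4, the heart with the highest Myh7 at 24980.9, the counts were 25 and 13.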

How the data were processed

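Heart RNA of 28 mice was hybridised to 1-colour arrays, 7 animals in each of 4 groups. The deposited values are intensity signals on a linear scale, from 0 to 26183.2. RMA is named, per the submitters' processing notes, but the values do not have its form. They are not logarithms, and each array has the same mean of 250.0 once 2% of values are trimmed from both ends. Global scaling was therefore assumed, whereas log2 values had been assumed in the design. The genome build behind the authors' annotation is not given in the sources used here, and promoter windows are those of RefSeq.

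Of 45101 probe sets, 64 array controls and the Myh7 probe set were left out, and 45036 were fitted. One gene symbol was given for 34945. Signals were floored at 0.1 (3 values) and log2 transformed. Fits used limma 3.58.1 in R 4.3.3 (lmFit and eBayes, 11 residual degrees of freedom) with WY14643 as covariate. A probe set was called when low and high hearts did not overlap and differed at least 1.5-fold. Slopes were tested two-sided, Benjamini-Hochberg adjusted over all probe sets, at 0.05. The fitting code was run on simulated data with independent noise in each probe set. That run carried no shared differences between arrays, so it does not cover the effect of scaling on the slopes. Errors are SE for differences and SD for signals. Sex was read from Xist and Eif2s3y.

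The members, the lists and the rules were chosen with earlier results of these data known. Genes were named by a rule: the 12 largest differences each way among probe sets with no overlap and a mean of at least 100 on either side, all probe sets of Myh6, Myh7, Thra, Thrb and Ppara, and up to 4 members of each list. Genes and probe sets outside the rule, such as Acta1, Nppb, Hr, Myl4, Trdn and second probe sets of named genes, were chosen after their values were seen. A ranking of genes by correlation with Myh7 was planned but not made, because the controls fall into separate clusters. No pair of the 28 arrays held identical values. Alternatives were another offset, normalisation, filter, threshold or covariate, the replicate block, single treatments and leaving out each array.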

Additional observations from a re-analysis of the deposited data

Results flagged for a closer look

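In 19 of the 176 groups of values examined, 1 heart stood far from the rest by Dixon's criterion. By chance about 1 group in 20 is flagged, a rate that takes the groups as independent. These groups share hearts and related genes, so they are not independent. Untreated control replicate 7 was the flagged heart in 9 of the 19. Its Myh7 signal of 3102.7 stood apart from the other untreated controls. Among the low hearts it was apart for the atrial genes Myl4 at 9488.6, Myl7 at 6647.3 and Sln at 6291.2, for Nppa at 12384.5, for Ptgfr at 204.7 and for Rps4l at 80.0, where it was the highest. It was the lowest for Fgf6 at 11.5 and for Vgll2 at 186.1.

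WY14643 control replicate 7 was the lowest low heart for Ccn2 at 1094.8, Pdk1 at 1496.6 and Fndc5 1453135_at at 882.5, and the highest for Dbh 1459848_x_at at 357.7 and Trdn 1451801_at at 4969.1. WY14643 control replicate 1 was the highest low heart for Fxyd6, at 277.7. On the high side, untreated replicate 5 was apart for Fndc5 1435115_at at 735.2, Spata33 at 77.2 and Afmid 1428885_at at 140.1, and untreated replicate 1 for Rxfp1 at 186.2. In Fndc5, Spata33 and Afmid, replicate 5 was the high heart nearest to the low ones.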

How the results depend on the processing

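The counts of 171 higher and 286 lower stayed within 1.5 times under every alternative run on all 14 controls, at 131 to 175 higher and 252 to 323 lower. Centring arrays on their medians gave 131 and 323, and quantile normalisation 174 and 276. Thresholds of 8000 and 12000 gave the same sides and the same Fisher's p. Leaving out 1 array gave 181 to 237 higher and 294 to 371 lower. WY14643 controls alone gave 1236 and 953, and untreated controls alone, with 1 low heart, 5103 and 4486, since fewer hearts overlap less often. The 52 called values of named probe sets kept their sign in all alternatives. Since their sides do not overlap, leaving out an array, the other thresholds and single treatments could not have changed it. With the replicate number as a block the difference was 0.32 for Dbh 1459848_x_at and -0.24 for Pdk1, under 1.5-fold. Pdk1 was also under it with the atrial signal as a covariate (-0.58) and by the slope over controls (-0.57), and Dlat 1452005_at with the block, by that slope and with centred arrays (0.57 in each). Of 2293 alternatives of named values 48 moved beyond the replicate spread. In del337TR the slope test gave 56 calls with the dimmest 40% of probe sets left out and 316 with trend and robust settings, and 0 in the others, with each array left out included (0 to 0). At 2-fold, 98 of 183 called probe sets had the same sign in del337TR. A split of del337TR hearts at 10000 was not run, since 0 lay below it.

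Hearts with the same replicate number were only weakly alike, and whether the numbers mark pairs was not settled. Deviations of same-numbered hearts correlated at 0.003 to 0.062, all above 0. The heart of the same number was the best match in 2 of 7 control pairs and 4 of 7 del337TR pairs. With the replicate number as a block, 148 were higher and 255 lower, the slope test gave 0 calls, and 224 called probe sets had the same sign in del337TR. Precision is limited by the number of arrays and, for dim probe sets, by their nearness to background.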
